A study of Mus musculus with 12 samples.

Results

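Of 27914 loci measured in mouse pluripotent cells, 4778 carried no gene name, and the 2746 unnamed loci that span 300 bp or more are described here. They were chosen by the missing name and the length, with no limit on level or change. How unnamed loci were assembled is not given. If reads of these libraries were used, some expression is nonetheless a condition of being listed. The 12 libraries, 3 for each of 4 groups, came from oligo-dT selected RNA of cells of the C57 Bl/6J strain. WT ESC, the wild-type embryonic stem cells, were held in the naive state on gelatin in serum-free N2B27. That medium contained LIF and inhibitors of MEK (PD0325901, 1 uM) and of GSK3 (CHIR99021, 3 uM). EpiLC, epiblast-like cells of wild type, were made on fibronectin over 48 h in Activin A at 20 ng/ml, Fgf2 at 12 ng/ml and 1% KOSR. Sirt1KO ESC are labelled as knockouts of Sirt1, a deacetylase that uses NAD, and Sirt1KO Otx2KD ESC carry in addition a knockdown of Otx2, a homeobox transcription factor of the primed epiblast. The latter are also called the cells with the knockdown. Both mutant groups grew in the naive medium. Neither the means of the Otx2 knockdown, nor the number of clones, nor whether replicates were separate cultures is given, so p-values measure only the spread between these libraries.

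A transcript assembler joins reads into loci and leaves a locus without a name where no annotated gene is found. Such loci can hold long noncoding RNAs, copies of repeats, RNA from enhancers, or pieces of a neighbouring gene that the annotation lacks, such as an earlier first exon or RNA that runs on past the annotated 3′ end. Cells that leave the naive state lower the expression of genes such as Nanog and Zfp42 and raise that of Otx2, Fgf5, Dnmt3b and Dnmt3l. Unnamed transcripts beside those genes can be read against them.

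Otx2 averaged 7.38 ± 0.458 FPKM in WT ESC, 100.2 ± 3.45 in EpiLC, 27.0 ± 6.36 in Sirt1KO and 6.07 ± 0.401 with the knockdown (SD, n = 3 each). FPKM are fragments per kilobase and per sequencing depth. Sirt1 averaged 25.8 ± 0.412 FPKM in WT ESC and 15.5 ± 0.196 in Sirt1KO. These values cover the whole locus and do not isolate a deleted part. Pou5f1, which marks pluripotent cells, lay between group means of 604.0 and 660.2 FPKM. Summed over 10 naive markers, FPKM was 1244 to 1298 in WT ESC and 340.1 to 340.5 in EpiLC. It was 931 to 1060 in Sirt1KO and 1251 to 1265 with the knockdown. Summed over 8 fibroblast or feeder markers, none of which was under 0.1 FPKM in all libraries of a group, it ran from 105.3 to 126.2, 60.6 to 62.4, 10.9 to 14.5 and 235 to 237 in that order. The Y-linked gene Eif2s3y averaged 28.9 FPKM in WT ESC, 4.52 in EpiLC, 0.0961 in Sirt1KO and 0.417 with the knockdown. The part of either difference in the results on unnamed loci was not tested.

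Sequences are given first for 2 places. Mir670 lies beside the largest rises in EpiLC, and Otx2 is the gene knocked down in the study and has 3 unnamed loci beside it. No sequence of an unnamed locus itself is shown, since the genome build of the deposited coordinates (mm9) was not used here. XLOC_014920 and XLOC_014921 flank the microRNA gene Mir670 on chromosome 2, and RefSeq (GRCm38.p6) gives its mature arms as follows, 5′ to 3′, with the seed (bases 2 to 8) in capitals.
mmu-miR-670-5p: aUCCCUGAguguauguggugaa
mmu-miR-670-3p: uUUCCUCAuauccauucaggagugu
Both arms lie in this 100-base hairpin, where capitals mark the arms, and the deposited Mir670 locus (mm9 chr2:94101457-94101556) has the same length.
Mir670 hairpin: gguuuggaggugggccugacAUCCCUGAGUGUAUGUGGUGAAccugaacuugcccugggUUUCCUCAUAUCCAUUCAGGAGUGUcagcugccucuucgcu
XLOC_007858, XLOC_007859 and XLOC_007860 lie one after another before the 5′ end of the deposited Otx2 locus (mm9 chr14:49277859-49282547, minus strand). RefSeq lists 4 starts for Otx2, and the 250 bases before the farthest upstream one (GRCm38.p6 chr14:48667645-48667894, minus strand) read as follows, with the letters TATAAA in capitals.
Otx2 farthest start: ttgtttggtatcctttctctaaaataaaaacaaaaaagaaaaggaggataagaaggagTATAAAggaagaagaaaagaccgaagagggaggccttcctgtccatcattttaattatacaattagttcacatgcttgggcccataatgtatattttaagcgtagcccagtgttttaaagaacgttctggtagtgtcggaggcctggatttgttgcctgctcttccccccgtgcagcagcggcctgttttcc
Searched on both strands, TATAAA occurred 1 time there and occurs in 12.4% of 32817 RefSeq promoter windows of that length. TAATCC, the letters that OTX proteins are known to bind, and the octamer ATGCAAAT occurred 0 times, against 6.25% and 1.6% of windows. A match or its absence says only which letters are in this window.

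The unnamed loci were short and weakly expressed. Their median length was 569 bp, with quartiles of 408 and 950 bp, and 222 of them reached 2000 bp. The median of their mean level over the 12 libraries was 2.12 FPKM, with quartiles of 1.38 and 6.15. At least 1 FPKM in at least 3 libraries was reached by 2657 of the 2746 loci (96.8%), against 12320 of 23136 named loci (53.3%). These shares may follow in part from how loci are listed, since a named locus can be listed without any expression (4550 were at 0 in all libraries). Of the 2746 unnamed loci, 0 were at 0 throughout and 1960 were above 0 in all 12 libraries. Just under the length limit, 74 unnamed loci of at least 290 bp had a median of 8.87 FPKM, and just above it, 55 loci of at most 309 bp had 5.27. Together the loci held between 0.314% and 0.368% of a library's summed FPKM, where unnamed loci under 300 bp held 94.9% to 96.5%. FPKM divides by length, and those shorter loci had a median length of 141.5 bp, so summed FPKM is not a share of fragments. Without the shorter loci, the unnamed loci of 300 bp or longer made up 6.84% to 9.42% of the sum.

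Behind most of these levels stood few sequenced fragments. FPKM values of a locus rose in equal steps that depended only on its length and the library, and all 14260 values of up to 10 steps lay within 0.1 of a whole number, where 20% would if values were spread evenly. One fragment was worth 0.945 FPKM at 300 to 309 bp in WT ESC replicate 1, 0.326 at about 500 bp, 0.12 at about 1000 bp and 0.0522 at about 2000 bp. For the 2742 loci where the step could be read, the median of the mean count was 10.9 fragments per library, and 1307 (47.7%) averaged under 10. On the same scale the libraries ranged in depth from 0.767 (Sirt1KO Otx2KD replicate 2) to 1.33 (EpiLC replicate 2) of WT ESC replicate 1. Counts of 2 replicates differed by 1.22 to 1.55 times the sampling noise (mean chi-square per locus), which does not tell whether they came from separate cultures. Differences are given on the log2(FPKM + 1) scale, which understates the change of low loci.

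Unnamed loci lay close to genes. The median distance to the nearest named locus was 10712 bp, against 29500 bp for the shorter unnamed loci. Within 1 kb lay 258 loci (9.4%), within 5 kb 928 (33.8%), and beyond 50 kb 565 (20.6%). The nearest named loci numbered 1552, and 1399 of them are protein-coding genes by their symbol. Near genes the side was uneven. Within 1 kb, 183 loci lay before the 5′ end of the gene and 40 past its 3′ end, while from 1 to 5 kb the order turned to 232 and 382. Beyond 10 kb both sides were about equal, with 391 and 365 loci at 10 to 50 kb. The side rests on the strand of the gene in GENCODE, matched by symbol. The strand of the unnamed loci themselves is not given.

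They also lay close to one another. For 1355 loci (49.4%) another unnamed locus lay within 1 kb, and 585 loci (21.3%) stood in 162 runs of at least 3 with gaps of up to 1 kb. The longest 2 runs held 8 loci each. Single genes with many such neighbours were C430002E04Rik on chromosome 3, nearest to 21 of them, 1700030C10Rik on chromosome 12 with 19, and 5730507C01Rik on chromosome 12 with 15.

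Relative to named genes, chromosomes carried unequal numbers. Among the assembled chromosomes, chromosome 13 had 18.4 unnamed loci per 100 named, chromosome 8 had 17.5 and chromosome 17 had 16.3, while chromosome 9 had 6.27 and chromosome Y had 0. On chromosomes 12 and 13 they lay far from genes, at medians of 44173 and 34833 bp, and on chromosome 9 they lay at 3945 bp. Of the unnamed loci on chromosome X, 35.7% reached 300 bp, the smallest share of any chromosome with more than 1 unnamed locus of this length.

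**Figure D1:**
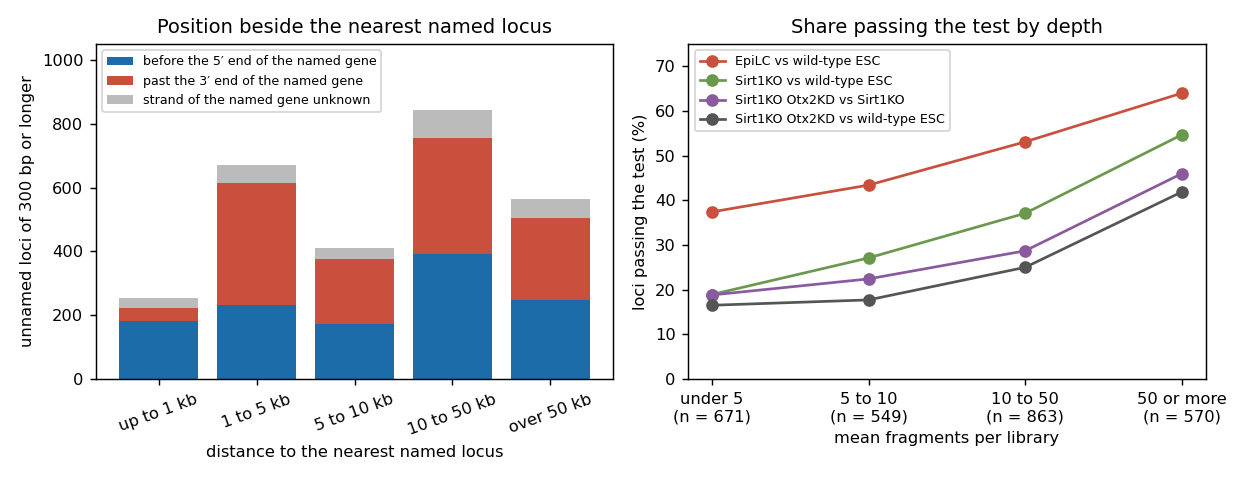
Left, number of unnamed loci of 300 bp or longer (y axis) by distance to the nearest named locus (x axis), split by the side of that gene: 183 lie before the 5′ end and 40 past the 3′ end within 1 kb, and 382 past the 3′ end at 1 to 5 kb. Right, share of tested loci that passed limma's test in each comparison (y axis, percent) by mean fragments per library (x axis, n below): for EpiLC it rises from 37.4% under 5 fragments to 64.0% at 50 or more.

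The first comparison asks which unnamed loci change as naive cells become EpiLC. Of 2657 tested, 666 rose (25.1%, against 30.7% of all tested loci) and 649 fell (24.4%, against 32.8%; limma, Benjamini-Hochberg adjusted p under 0.05 over all 17009 tested loci). These are 49.5% of the loci, where 63.5% of all tested loci passed. By size the order was the reverse. A change of at least 1 log2 unit that passed was seen in 681 unnamed loci (25.6%), 338 up and 343 down, against 17.0% of all tested loci (7.57% up and 9.4% down). In 54.0% of unnamed loci the EpiLC and WT ESC libraries did not overlap, against 68.5% of all. The median difference was 0.01 and the median size 0.54, against 0.40 in named loci. The share that passed rose with depth, from 37.4% of loci with a mean under 5 fragments to 64.0% of those with 50 or more.

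The largest rises in EpiLC lay beside Mir670, Terf2ip, Otx2 and Bst2. XLOC_014921 (chr2:94104675-94104990, 316 bp, 3118 bp from Mir670 on its 5′ side) stood at 16.7, 16.7 and 20.2 FPKM in EpiLC, from 21, 26 and 21 fragments. In WT ESC and in Sirt1KO Otx2KD it was listed at 0 in all 6 libraries, and in Sirt1KO it had 1 fragment in each library. The EpiLC libraries were thus far above all others, by 4.23 ± 0.08 against WT ESC on the log2 scale (SE, limma adjusted p = 3.1e-10). Only the EpiLC libraries reached the 1 FPKM of the filter, so the locus was tested because of the group in which it is high. XLOC_014920 (chr2:94092050-94092750, 701 bp, 8706 bp past Mir670) had 62, 61 and 50 fragments in EpiLC, 0 in all WT ESC and Sirt1KO Otx2KD libraries, and 0, 4 and 1 in Sirt1KO. Mir670 itself, whose RNA precursor gives the microRNA printed above, was listed at 0 in every library. Its locus is 100 bp and the RNA was oligo-dT selected, so this 0 is not a measure of the microRNA.

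XLOC_024965 (chr8:114548822-114549509, 688 bp) lies 4393 bp past the 3′ end of Terf2ip, which encodes the telomere protein Rap1. It stood at 1.43, 1.65 and 1.2 FPKM in WT ESC and at 25.4, 26.3 and 26.6 in EpiLC. Sirt1KO libraries lay between those of WT ESC and EpiLC, at 20.8, 13.5 and 17.4. Sirt1KO Otx2KD libraries were low, at 1.71, 2.66 and 3.4. Terf2ip was at 6.06 in WT ESC and 9.01 in EpiLC, a difference of 0.51 against 3.48 ± 0.18 for the unnamed locus. XLOC_024878 (chr8:74049297-74049607, 311 bp, 8553 bp past Bst2, an interferon-induced membrane protein) was listed at 0 in WT ESC and had 11, 6 and 9 fragments in EpiLC.

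Beside Otx2, 3 unnamed loci followed the gene across the 4 groups. They begin 128, 1183 and 4252 bp before the 5′ end of the deposited Otx2 locus, and the farthest ends at 4692 bp. In RefSeq, the other starts of Otx2 lie 2375, 4774 and 4910 bases before its most downstream start. These are distances within each build. The files do not state which of the starts the deposited locus uses, and whether the unnamed loci are part of longer Otx2 transcripts was not tested. The antisense gene Otx2os1 begins 1723 bp beyond XLOC_007860, and without strand in the files its reads cannot be told apart from those of Otx2.

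XLOC_007859, the longest of them at 2366 bp, had 4, 3 and 4 fragments in WT ESC, 88, 100 and 55 in EpiLC, 18, 22 and 17 in Sirt1KO, and 0, 2 and 2 with the knockdown. The ranges of the 4 groups did not overlap, but WT ESC and the knockdown could not be separated by the test (-0.13 ± 0.10, limma adjusted p = 0.32). It averaged 0.167 ± 0.0245 FPKM in WT ESC, 3.33 ± 0.461 in EpiLC, 0.766 ± 0.0869 in Sirt1KO and 0.068 ± 0.0613 with the knockdown (SD, n = 3). On the log2 scale it rose by 1.89 ± 0.10 in EpiLC (adjusted p = 7.5e-08) and by 0.60 ± 0.10 in Sirt1KO (adjusted p = 0.00048), and it was lower with the knockdown than in Sirt1KO (-0.73 ± 0.10, adjusted p = 0.00016). XLOC_007860 (441 bp) had 1, 0 and 0 fragments in WT ESC, 25, 25 and 21 in EpiLC, 8, 9 and 6 in Sirt1KO, and 1, 0 and 0 with the knockdown. Here WT ESC and Sirt1KO Otx2KD could not be separated, with a difference of -0.03 ± 0.18. XLOC_007858 (362 bp) had 1, 1 and 0 fragments, 11, 18 and 11, 5, 11 and 1, and 0 in all 3 libraries, in the same order. Its rise in Sirt1KO, 1.32 ± 0.44 with an adjusted p of 0.029, did not pass without WT ESC replicate 3 (1.08, adjusted p = 0.1) or without Sirt1KO replicate 1 (1.21, adjusted p = 0.082) or 2 (0.83, adjusted p = 0.089).

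Dnmt3l, a cofactor of DNA methyltransferases, went from 5.68 to 229 FPKM in EpiLC, and 3 unnamed loci lay within 10 kb of it. XLOC_002727 (1174 bp, 1236 bp before the immune ligand gene Icosl and 3342 bp from Dnmt3l) had 0, 1 and 3 fragments in WT ESC, 30, 49 and 27 in EpiLC, 7, 15 and 11 in Sirt1KO and 3, 3 and 1 with the knockdown. It rose by 1.90 ± 0.15 in EpiLC (adjusted p = 2e-06) and 0.80 ± 0.15 in Sirt1KO (adjusted p = 0.0014), and was lower with the knockdown than in Sirt1KO (-0.67 ± 0.15, adjusted p = 0.0048). XLOC_002728, 78 bp before Icosl, had 26, 20 and 14 fragments in EpiLC and at most 4 in a WT ESC library. XLOC_002726 rested on 5, 13 and 4 fragments in EpiLC. Icosl, the nearest gene to XLOC_002727 and XLOC_002728, went from 1.72 to 12.6 FPKM in EpiLC and to 4.64 in Sirt1KO, with differences of 2.33 and 1.05, so these loci ran with both genes.

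Beside the naive gene Nanog, a homeobox factor, lay XLOC_021115 and XLOC_021116, 687 and 226 bp away. XLOC_021116 (362 bp) had 8, 4 and 10 fragments in WT ESC and 0, 2 and 2 in EpiLC, and it fell (-1.67 ± 0.44 on the log2 scale, adjusted p = 0.0073). XLOC_021115 had 3, 3 and 12 fragments in WT ESC and 4, 2 and 2 in EpiLC, which overlap (limma adjusted p = 0.19). Nanog itself went from 542 to 96.9 FPKM. XLOC_017954, 2363 bp past L1td1, an RNA-binding protein gene of pluripotent cells, passed no comparison, with 2 to 17 fragments per library. These 9 loci are all the tested unnamed loci within 10 kb of a gene on the marker lists.

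**Figure D2:**
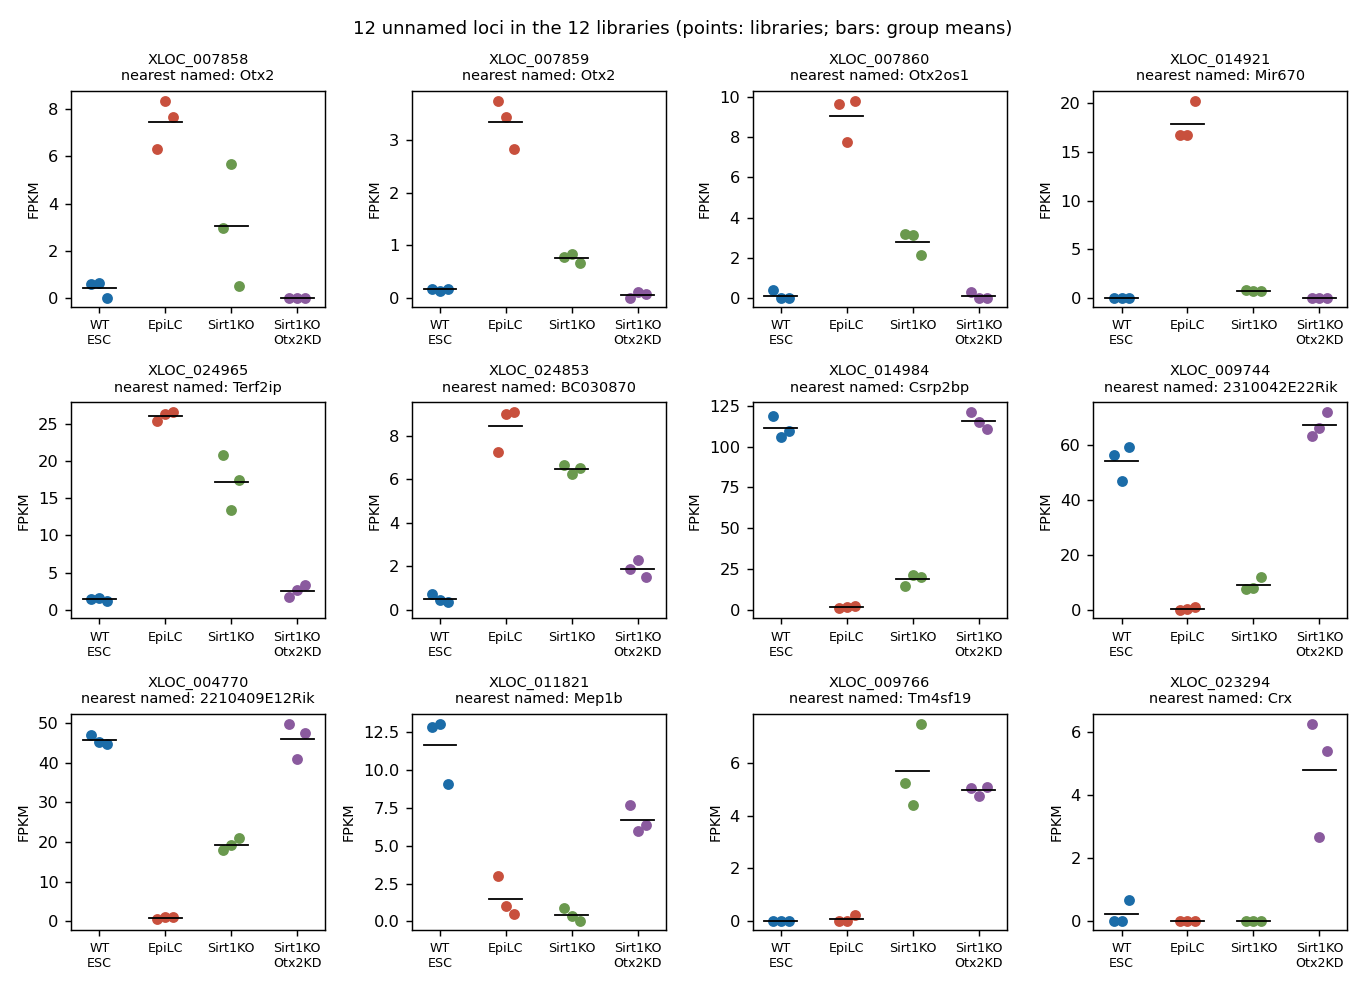
FPKM (y axis, linear, scaled per panel) of 12 unnamed loci in the 4 groups (x axis), with 1 point per library and a bar at the mean of 3. The Otx2 neighbours and XLOC_024965 are high in EpiLC and intermediate in Sirt1KO, XLOC_014984 is near 111 FPKM in WT ESC and 1.7 in EpiLC, and XLOC_023294 is high in Sirt1KO Otx2KD.

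The 5 largest falls in EpiLC were of loci with means of 45.6 to 246 FPKM in WT ESC, and 1 of the 5 lay beside a named locus that fell by at least 1 log2 unit. XLOC_014984 (chr2:144191011-144191394, 384 bp) stood at 119, 106 and 110 FPKM in WT ESC and at 1.01, 1.63 and 2.45 in EpiLC. Sirt1KO libraries lay between, at 14.6, 21.4 and 20.2, and Sirt1KO Otx2KD libraries at 121, 115 and 111, level with WT ESC. The fall in EpiLC was -5.41 ± 0.19 log2 units (adjusted p = 7.4e-09). Csrp2bp and Gm20571, the merged named locus 3324 bp away, went from 26.9 to 34.7 FPKM, the other way. XLOC_009744 (chr16:21079915-21080358, 444 bp, 72373 bp past 2310042E22Rik) had 137, 113 and 147 fragments in WT ESC, 0, 1 and 2 in EpiLC, 19, 23 and 34 in Sirt1KO, and 203, 124 and 189 with the knockdown. Its nearest named locus never averaged above 0.158 FPKM in a group. XLOC_017999 (chr4:121756115-121756551, 461384 bp from Gm12887) averaged 246 ± 12.2 FPKM in WT ESC, 6.79 ± 1.94 in EpiLC, 172 ± 15.7 in Sirt1KO and 373 ± 15.5 with the knockdown. XLOC_021066, past Hk2, the hexokinase 2 gene, averaged 49.6 ± 5.97 and 1.39 ± 0.148 FPKM in WT ESC and EpiLC, while Hk2 was at 62.3 and 56.4.

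That one, XLOC_004770 (chr11:88831007-88833253, 2247 bp), lies 698 bp before 2210409E12Rik. It stood at 46.9, 45.2 and 44.8 FPKM in WT ESC, 0.719, 1.2 and 1.03 in EpiLC, 18.0, 19.1 and 21.0 in Sirt1KO, and 49.8, 40.9 and 47.4 with the knockdown. The difference in EpiLC was -5.17 for the gene and -4.56 for the unnamed locus.

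In Sirt1KO against WT ESC, 431 unnamed loci rose and 477 fell, 34.2% of those tested, where 52.5% of all tested loci passed. Among changes of at least 1 log2 unit there were 209 falls and 95 rises. With quantile normalization the counts at any size turned to 462 rises and 453 falls. Changes of at least 1 log2 unit made up 11.4% of unnamed loci, against 8.67% of all tested (5.62% falls and 3.05% rises). Libraries of the groups did not overlap in 41.9% of unnamed loci, against 59.8% of all. The median difference was 0.03 and the median size 0.37. On chromosome 11, 85 of 184 tested unnamed loci fell and 9 rose in Sirt1KO, where 26.6% and 25.9% of all tested loci of the genome did. How many named loci of that chromosome passed was not counted. Its unnamed loci had a median of -0.46 and its named loci a median of -0.49. In EpiLC these medians were -0.51 and -0.46, and in Sirt1KO Otx2KD against WT ESC -0.21 and -0.39. On chromosome 8 the Sirt1KO medians were 0.46 for named and 0.19 for unnamed loci. The EpiLC medians there were 0.40 and 0.07, and those of the cells with the knockdown against WT ESC were 0.36 and 0.30. All 3 comparisons share the WT ESC libraries. With the named median of each chromosome taken out, 402 unnamed loci rose and 481 fell in Sirt1KO.

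**Figure D3:**
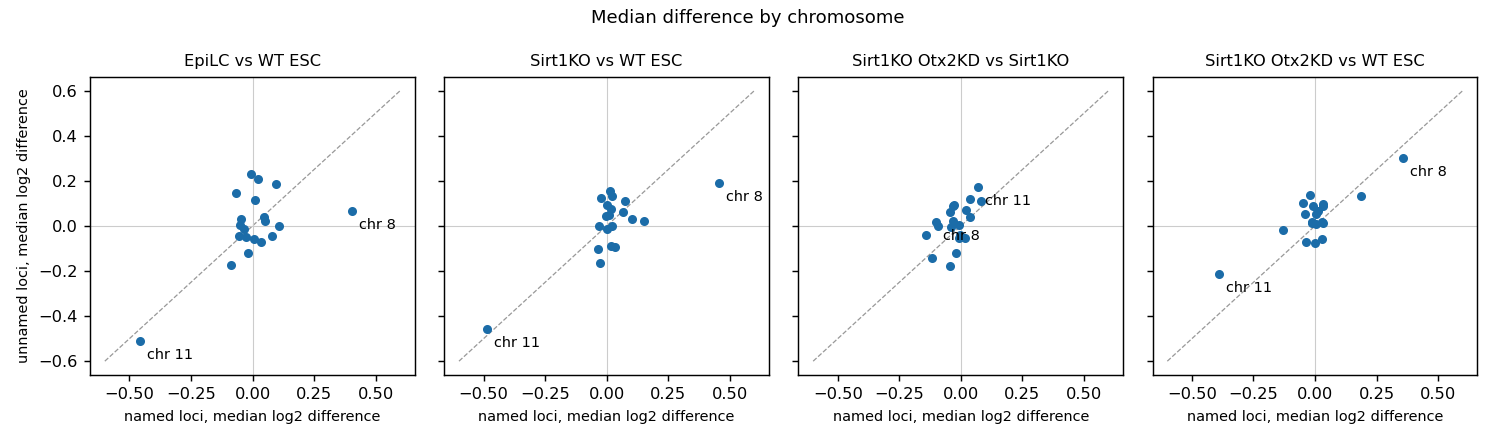
Median log2(FPKM + 1) difference of unnamed loci of 300 bp or longer (y axis) against that of named loci (x axis), 1 point per chromosome with at least 50 tested unnamed loci, with the line of equality dashed. Chromosome 11 sits near -0.5 on both axes in the first 2 comparisons, and chromosome 8 sits right of 0.35 in the 3 comparisons with WT ESC but lies below the line.

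The 5 largest rises in Sirt1KO were of XLOC_024965 and XLOC_024878, described above, and of XLOC_024853, XLOC_009766 and XLOC_026312. XLOC_024853 (chr8:67742066-67743345, 1280 bp, 88629 bp from BC030870) had 8, 5 and 4 fragments in WT ESC, 76, 81 and 82 in Sirt1KO, 85, 131 and 88 in EpiLC, and 27, 19 and 18 in Sirt1KO Otx2KD. It rose by 2.30 ± 0.12 in Sirt1KO (adjusted p = 2.2e-07). XLOC_009766 (chr16:32410496-32411132, 637 bp, 2182 bp past Tm4sf19, a tetraspanin-like gene) was listed at 0 in all WT ESC libraries and had 24, 23 and 38 fragments in Sirt1KO and 29, 16 and 24 with the knockdown. In EpiLC 1 library had 1 fragment, so the 6 mutant libraries stood apart from the 6 wild-type ones. XLOC_026312 (chr9:4380141-4380480, 3056 bp before 8430410K20Rik) had 6, 11 and 7 fragments in Sirt1KO and at most 2 in any other library.

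Among the largest falls in Sirt1KO, XLOC_011821 lies 1378 bp before Mep1b, which encodes a subunit of the metalloprotease meprin. It had 28, 28 and 20 fragments in WT ESC, 7, 3 and 1 in EpiLC, 2, 1 and 0 in Sirt1KO and 22, 10 and 15 with the knockdown. Mep1b moved with it, from 20.7 to 1.41 FPKM in Sirt1KO, with differences of -3.17 for the gene and -3.19 ± 0.34 for the unnamed locus. XLOC_027605 (X:61749785-61751957, 2173 bp, 219613 bp from Slitrk4) had 158, 120 and 140 fragments in WT ESC, 107, 113 and 56 in EpiLC, 2, 4 and 3 in Sirt1KO and 41, 29 and 25 with the knockdown, so it was lowest in Sirt1KO without overlap. XLOC_008946 (412 bp, 81827 bp from Fam113b) averaged 17.3 ± 2.19 FPKM in WT ESC and 0.949 ± 0.577 in Sirt1KO, while Fam113b went from 33.4 to 20.6. XLOC_002713, 95238 bp past Reep3, had 257, 256 and 253 fragments in WT ESC and 18, 19 and 26 in Sirt1KO. XLOC_004795, on chromosome 11 and 9934 bp before Ccdc43, had 16, 8 and 5 fragments in WT ESC and 0 in every Sirt1KO library, and Ccdc43 went from 203 to 49.6 FPKM.

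When Otx2 was knocked down in Sirt1KO cells, 432 unnamed loci rose and 327 fell against Sirt1KO, 28.6% of those tested, where 48.9% of all tested loci passed. Changes of at least 1 log2 unit made up 9.0%, against 6.44% of all, with 181 rises (6.81% of unnamed loci, against 4.47% of all) and 58 falls (2.18%, against 1.97%). With quantile normalization the counts at any size were 397 rises and 405 falls, so the excess of rises depends on the scaling. The summed fibroblast or feeder markers were higher with the knockdown as well (235 to 237 against 10.9 to 14.5 FPKM), and their part in the result was not tested. XLOC_009744, XLOC_014984, XLOC_008946, XLOC_019679 and XLOC_002707 rose most. XLOC_019679 (358 bp, 43142 bp before Foxk1, a forkhead factor) had 1, 5 and 2 fragments in Sirt1KO and 21, 21 and 20 with the knockdown, against 27, 14 and 11 in WT ESC. XLOC_002707, 6281 bp before Srgn, the proteoglycan serglycin, had 0, 0 and 1 fragments in Sirt1KO and 17, 6 and 10 with the knockdown, and Srgn went from 1.2 to 15.4 FPKM. Of the 5 largest falls, 3 were of XLOC_024965, XLOC_024878 and XLOC_026312, at -2.35 ± 0.18, -2.07 ± 0.31 and -2.21 ± 0.36. XLOC_019427, 46328 bp before the cell-cycle kinase gene Cdk6, had 11, 11 and 16 fragments in Sirt1KO and 0 in every Sirt1KO Otx2KD library, and Cdk6 went from 3.06 to 1.15 FPKM. XLOC_001392 rested on 4, 10 and 5 fragments in Sirt1KO against 2, 0 and 1. Its difference of -1.81 had a limma adjusted p = 0.013 and did not pass without Sirt1KO replicate 2 (-1.52, adjusted p = 0.052) or Sirt1KO Otx2KD replicate 2 (-1.46, adjusted p = 0.051).

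The direction of change under the knockdown was mostly opposite to that in EpiLC. These comparisons share no library. Both were passed by 501 unnamed loci, 38.1% of those that passed in EpiLC and 66.0% of those that passed with the knockdown. For named loci these shares were 64.0% and 78.7%. Of the 501, 172 rose in EpiLC and fell with the knockdown, 261 fell and then rose, 23 rose in both and 45 fell in both, so 86.4% went opposite ways. With at least 1 log2 unit in each, 117 of 121 did (25 and 92). In named loci 76.2% of 5711 went opposite ways, and 94.1% of 374 with at least 1 log2 unit in each, near the 96.7% of unnamed loci. Over all tested loci, Pearson's r between the differences was -0.50 in unnamed and -0.45 in named loci, across loci that share length and depth in both comparisons and are not independent.

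**Figure D4:**
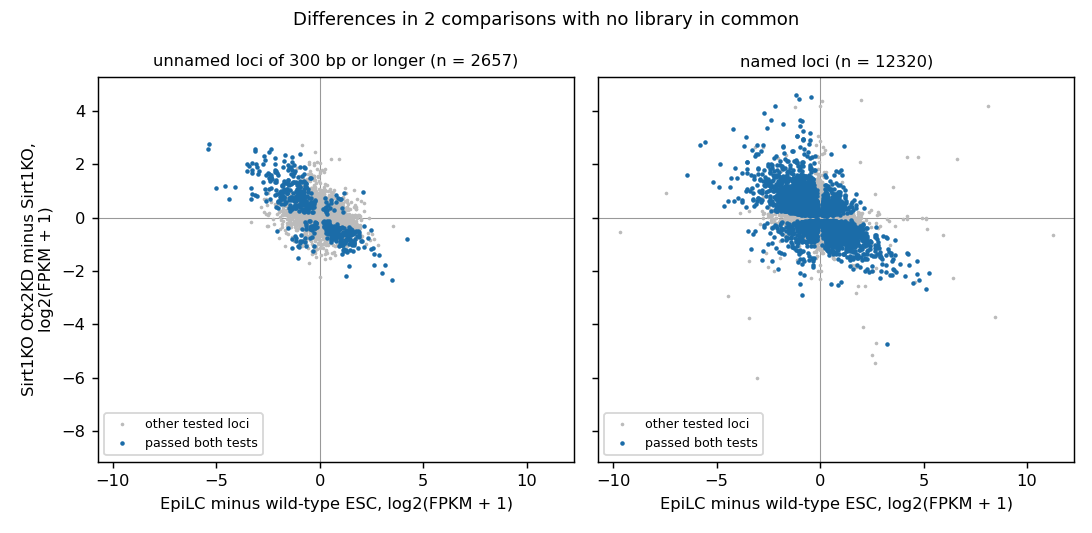
Difference of each tested locus in Sirt1KO Otx2KD minus Sirt1KO (y axis) against EpiLC minus WT ESC (x axis), both in log2(FPKM + 1), for 2657 unnamed loci (left) and 12320 named loci (right), with those that passed both tests in blue. Most blue points on the left lie at the upper left (261) and lower right (172).

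Against WT ESC, Sirt1KO Otx2KD had 345 unnamed loci higher and 319 lower, 664 of the 2657 tested, where 41.6% of all passed. With quantile normalization they turned to 307 higher and 340 lower. At least 1 log2 unit was reached by 119 rises and 86 falls (7.72%, against 4.36% of all, with 2.18% each way). The libraries did not overlap in 34.1% of unnamed loci, against 52.7% of all. Besides XLOC_009766, the largest rises were low in the other 3 groups. XLOC_023294 (chr7:16443579-16444069, 491 bp, 7226 bp past Crx, a homeobox gene related to Otx2) had 24, 6 and 17 fragments in Sirt1KO Otx2KD and 2 in total elsewhere. XLOC_021059 (633 bp, 161489 bp from Gm20362) had 38, 18 and 34 fragments there and at most 7 in any other library. XLOC_018015, 67030 bp before the connexin gene Gjb5, had 11, 4 and 6, and XLOC_027720, 43976 bp past Gpr174 on chromosome X, had 15, 8 and 9.

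Some loci were high in WT ESC alone. XLOC_011076 (chr17:28678093-28680635, 2543 bp, 2172 bp past 4930511I11Rik) had 146, 112 and 130 fragments in WT ESC, and 1 to 20 in the other 9 libraries. XLOC_006920 (655 bp, 89046 bp past Rgnef) had 52, 52 and 55 in WT ESC and 4 to 14 elsewhere. XLOC_004796, 659 bp beyond XLOC_004795, had 16, 22 and 21 in WT ESC and at most 5 elsewhere. XLOC_015052, 42585 bp past 5031425F14Rik, had 11, 4 and 7 in WT ESC and at most 3 elsewhere.

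Over the 4 groups together, 1680 of 2657 unnamed loci differed (63.2%, moderated F-test of limma, adjusted p under 0.05), where 78.8% of all tested loci did. EpiLC had the highest mean in 616 of the 1680 and the lowest in 632. All 3 EpiLC libraries stood above the other 9 in 364 of the 2657 tested loci (13.7%, against 18.8% of all tested) and below them in 346 (13.0%, against 19.2%). For WT ESC these counts were 221 (8.32%, against 11.4% of all) and 113 (4.25%, against 8.91%). For Sirt1KO they were 86 (3.24%, against 7.74%) and 79 (2.97%, against 7.73%), and for Sirt1KO Otx2KD 166 (6.25%, against 10%) and 77 (2.9%, against 7.57%).

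Neighbouring unnamed loci changed together. Among consecutive tested loci with a gap of up to 1 kb (668 pairs), the EpiLC differences had Pearson's r = 0.88, and in all 268 pairs where both passed they went the same way. At 1 to 10 kb, r was 0.80 over 335 pairs and 96 of 100 went the same way. At 10 to 100 kb, r was 0.41 over 257 pairs with 36 of 51, and over 100 kb, r was 0.05 over 1295 pairs with 193 of 345. The other comparisons fell off in the same order, from r = 0.80 to 0.04 in Sirt1KO, from 0.76 to 0.02 with the knockdown against Sirt1KO and from 0.72 to 0.06 against WT ESC. With gaps of up to 1 kb closed, the 2746 loci form 2036 runs, and whether the loci of a run belong to 1 transcript was not tested.

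**Figure D5:**
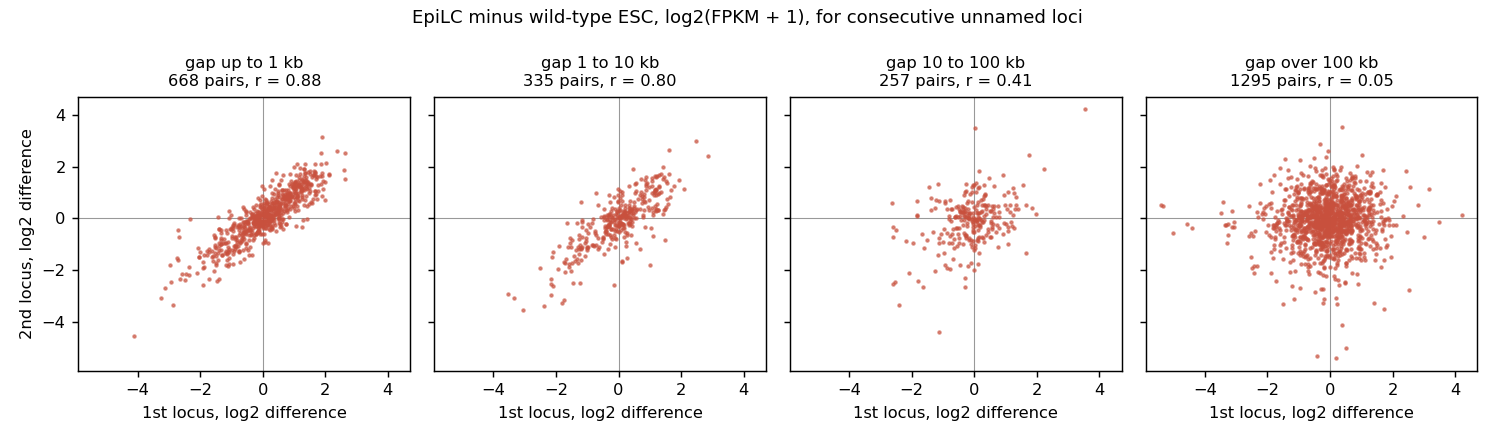
EpiLC minus WT ESC difference in log2(FPKM + 1) of each unnamed locus (x axis) and the next one along the chromosome (y axis), by the gap between them. Points hug the diagonal for the 668 pairs within 1 kb (r = 0.88) and form a round cloud for the 1295 pairs over 100 kb apart (r = 0.05).

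Several groups of neighbours moved as blocks. They were picked after their values were seen, so they are described without a test of the group. Not every crowded group did so. Of 10 tested loci nearest to 5730507C01Rik, 1 rose and 3 fell in EpiLC, and of 13 nearest to 1700030C10Rik, 6 rose and 0 fell. Over all tested loci, 30.7% rose and 32.8% fell in EpiLC, and 26.6% fell in Sirt1KO. With the knockdown against Sirt1KO, 24.8% rose and 24.1% fell. All 12 unnamed loci nearest to A730011L01Rik (chr11:119301501-119348777) fell in EpiLC and in Sirt1KO, with median differences of -2.73 and -1.80, and all 12 rose with the knockdown against Sirt1KO (1.67). Their median level was 21.5, 21.5 and 20.0 FPKM in WT ESC, 2.43, 2.46 and 1.97 in EpiLC, 5.06, 5.38 and 6.25 in Sirt1KO, and 21.4, 18.3 and 24.1 with the knockdown. The named gene went from 1.55 ± 0.172 to 2.03 ± 0.0571 FPKM in EpiLC. These changes are larger than the median of chromosome 11.

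Near C430002E04Rik (chr3:41261215-41327315), 20 of 21 unnamed loci rose in EpiLC, with a median of 1.26, and 7 of the 21 fell with the knockdown against Sirt1KO. Their median level was 0.485, 0.676 and 0.602 FPKM in WT ESC and 3.14, 3.54 and 2.86 in EpiLC, while the named gene went from 5.75 to 7.36. In the mutant libraries their median level was at most 0.999. A locus at such levels passes the filter of 1 FPKM through EpiLC alone, so the count of rises in EpiLC is no independent support. Near 1700017J07Rik (chr2:168809096-168846898), 11 of 13 rose in EpiLC, with a median of 1.20. Near Lrrc34 (chr3:30575063-30598823), a leucine-rich repeat gene, 11 of 13 fell in EpiLC (median -1.35) and 11 of 13 in Sirt1KO (-0.65), and Lrrc34 had a difference of -2.90 in EpiLC. The run that holds XLOC_023294 (chr7:16440855-16448276) has 7 loci, and all 7 rose in Sirt1KO Otx2KD against Sirt1KO and against WT ESC, with medians of 1.76 and 1.92. Of all tested loci, 24.8% and 20.8% rose in these comparisons. The median level of the run was 4.84, 2.03 and 3.26 FPKM in Sirt1KO Otx2KD and at most 0.283 in any other library. A locus at such levels passes the filter of 1 FPKM through that group alone, so the count of rises is no independent support. By limma, 0 of the 7 passed in EpiLC or Sirt1KO. Crx itself was at 1.09 ± 0.406 FPKM in Sirt1KO Otx2KD and at most 0.0741 in the other group means.

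Changes of unnamed loci ran with those of the nearest gene, more within 5 kb than beyond 10 kb, but not in an even order of distance. Over the 1948 tested loci whose nearest named locus was tested too, the EpiLC differences of locus and gene had r = 0.44 (Spearman's rho = 0.43). Within 1 kb before the 5′ end r was 0.73 over 168 loci, and 52 of the 62 where both passed went the same way. At 1 to 5 kb past the 3′ end r was 0.52 over 322 loci, with 82 of 93. Within 1 kb past the 3′ end it was 0.48 over 40 loci. At 10 to 50 kb r was 0.36 over 559 loci, and beyond 50 kb it was 0.28 over 287 loci, with 57 of 96 (59.4%) going the same way. With the knockdown against Sirt1KO, r was 0.51 within 1 kb before the 5′ end and 0.31 within 1 kb past the 3′ end. Past the 3′ end it was 0.54 both at 1 to 5 kb and at 5 to 10 kb, and on either side 0.11 at 10 to 50 kb and 0.14 beyond. Among loci with a mean of at least 10 fragments, 80 lay within 1 kb before the 5′ end and 188 beyond 50 kb. In EpiLC these gave r = 0.80 and 0.27, and with the knockdown against Sirt1KO 0.39 and 0.13. These correlations are across loci, which share libraries and sometimes the same gene.

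The most abundant unnamed loci split into steady and unsteady ones. XLOC_004810 on chromosome 11 had 832, 1472 and 8007 FPKM in WT ESC, 8341, 643 and 1030 in EpiLC, 4860, 3044 and 1996 in Sirt1KO, and 3202, 5223 and 2891 with the knockdown, a 13.0-fold range within EpiLC. XLOC_016226 on chromosome 3 and XLOC_009768 on chromosome 16 varied with it, keeping 0.598 to 0.713 and 0.481 to 0.564 of its value in every library. None of these 3 passed any comparison. By contrast XLOC_009810, 30125 bp before the nuclear receptor corepressor gene Nrip1, stayed between group means of 623 and 806 FPKM, and XLOC_001465 between 440 and 496. XLOC_009810 still passed in EpiLC (-0.20, limma adjusted p = 0.022) and Sirt1KO (0.18, adjusted p = 0.043). Its EpiLC call was lost without WT ESC replicate 2 or 3 or EpiLC replicate 2 or 3 (limma adjusted p = 0.0503 to 0.07). Its Sirt1KO call was lost whichever WT ESC or Sirt1KO library was left out (limma adjusted p = 0.06 to 0.11). XLOC_001465 passed with the knockdown against Sirt1KO (-0.15, limma adjusted p = 0.043). That call was lost without Sirt1KO replicate 2 or 3, and without knockdown replicate 1, 2 or 3 (limma adjusted p = 0.067 to 0.13). XLOC_021153 fell from 1431 ± 37.5 in WT ESC to 872 ± 11.8 in EpiLC, and XLOC_021034 from 850 ± 23.9 to 603 ± 23.1. XLOC_021035 went from 471 ± 15.0 to 313 ± 15.8, and XLOC_008920 from 530 ± 21.5 to 605 ± 26.1. The rise of XLOC_008920 (0.19, adjusted p = 0.029) did not pass without WT ESC replicate 2 (0.19, adjusted p = 0.063) or 3 (0.16, adjusted p = 0.097), nor without EpiLC replicate 2 (0.16, adjusted p = 0.098) or 3 (0.19, adjusted p = 0.063).

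By length, XLOC_026480 spans nearly the whole mitochondrial genome (chrM:11-16297), where no locus is named. It had 2070, 1955 and 2012 FPKM in WT ESC, 1110, 1101 and 1103 in EpiLC, 1767, 1940 and 2015 in Sirt1KO, and 1616, 1679 and 1656 with the knockdown. EpiLC was thus below all other libraries, with a difference of -0.86 ± 0.08 log2 units against WT ESC (adjusted p = 5.3e-06). Of the other long ones, XLOC_005892, XLOC_005894 and XLOC_011551 share their span with the named genes Cdk13 or Mib1, so how reads were divided between the entries is not known. XLOC_006915 (chr13:98252663-98271255, 18593 bp) stands alone, 58699 bp before Gm5086. It averaged 34.2 ± 0.378 FPKM in WT ESC, 12.9 ± 0.582 in EpiLC, 14.6 ± 0.847 in Sirt1KO and 19.1 ± 1.01 with the knockdown, with 2094 to 6396 fragments per library and no overlap between WT ESC and the rest.

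The loci farthest from any gene lay on chromosome 1, where XLOC_001433 to XLOC_001436 are 1720952 to 1752831 bp from Cntnap5a, and on chromosome 8, where XLOC_024737 is 1576184 bp from Efnb2. They were low, with 0 to 27 fragments per library. XLOC_024737 had 12 to 27 fragments in every library and passed no comparison, and nor did XLOC_001436. The other 3 each passed 1 comparison by limma, and each call was lost when 1 library was left out. XLOC_001433 was 1.08 higher with the knockdown than in WT ESC (adjusted p = 0.015). It did not pass without WT ESC replicate 1 (0.83, adjusted p = 0.054) or knockdown replicate 1 (1.00, adjusted p = 0.0501) or 3 (0.84, adjusted p = 0.055). XLOC_001434 was 1.15 higher with the knockdown than in Sirt1KO (adjusted p = 0.026), and did not pass without Sirt1KO replicate 1 (1.02, adjusted p = 0.081) or 3 (1.15, adjusted p = 0.060) or knockdown replicate 3 (0.92, adjusted p = 0.092). XLOC_001435 was 1.62 higher with the knockdown than in WT ESC (adjusted p = 0.045), and did not pass without any 1 of the WT ESC replicates or knockdown replicate 1 or 2 (1.22 to 1.77, adjusted p = 0.066 to 0.15).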

How the data were processed

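Per the submitters' processing notes, reads were processed with TopHat, Cufflinks and Cuffdiff on mm9, with no versions given. Values in the deposited tables are the FPKM that the authors computed for each locus, in 12 libraries (4 groups of 3, grouped by sample titles). How unnamed loci were assembled is not given in the sources used here. Deposited starts count from 0 (203 of 205 microRNA hairpins match in length that way), so 1 was added.

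A locus was tested if at least 3 libraries reached 1 FPKM (17009, 2657 of them unnamed and of 300 bp or longer) as log2(FPKM + 1) in limma 3.58.1 (R 4.3.3), with 1 mean per group over 12 libraries, trend and robust empirical Bayes, and Benjamini-Hochberg adjusted p under 0.05. A locus high in 1 group could pass this filter through that group alone, and its p-value is then no independent support. Examples are XLOC_014920, XLOC_014921 and XLOC_007859 through EpiLC, XLOC_011076 through WT ESC and XLOC_023294 through Sirt1KO Otx2KD. The script was tested on simulated data. Fragments were recovered from the FPKM steps per locus length and are a description only. Strand and biotype came from GENCODE by symbol, and sequences from RefSeq GRCm38.p6, both used without coordinates in the results on mm9. Tables and figures used Python 3.11.15.

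Unnamed loci described one by one were chosen by rule. Per comparison they were the 5 largest rises and 5 largest falls among loci that passed. Those had groups not overlapping and a higher mean of at least 2 FPKM. Added were the 10 most abundant, the 5 longest, the 5 farthest from a named locus, and all within 10 kb of a marker gene. The members, rules and lists were chosen with earlier results of these data known. Alternatives were other pseudocounts, filters, scalings, lengths, fits and left-out libraries.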

Additional observations from a re-analysis of the deposited data

How the results depend on the processing

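Over 11 results (counts of unnamed loci that rose, fell, differed or passed the filter, and the median distance), 143 of 157 alternative values stayed within 1.5 times, and 14 did not or were a changed distance. Most that moved test fewer loci by construction. With a mean of at least 2 FPKM (1459 loci), 932 differed among the groups, 315 rose and 418 fell in EpiLC, 249 rose in Sirt1KO, and 257 and 188 rose in Sirt1KO Otx2KD against Sirt1KO and WT ESC. With a mean of at least 10 fragments (1433 loci, chosen after seeing the data), 1024 differed, 372 rose in EpiLC and 285 in Sirt1KO, and 284 and 212 rose with the knockdown against Sirt1KO and WT ESC. From 500 bp (1543 loci), 1096 differed and 440 rose in EpiLC. The median distance to a named locus that passed the filter was 15890 bp.

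Leaving out 1 library gave 582 to 643 rises and 592 to 616 falls in EpiLC, 357 to 386 and 411 to 438 in Sirt1KO, 363 to 419 and 254 to 318 with the knockdown against Sirt1KO, and 273 to 323 and 273 to 295 against WT ESC. For calls of the unnamed loci described one by one, alternatives were limited to pseudocount 0.1, no filter and left-out libraries. Of these 1032 alternative values, 73 no longer passed and 0 changed sign. Replicate numbers did not pair the samples (correlations of -0.09 to 0.08; in each comparison at most 3 of the 6 libraries correlated best with their own number), and with a replicate block 660 rose and 646 fell in EpiLC. Quantile normalization turned the median difference of unnamed loci with the knockdown against Sirt1KO from 0.01 to -0.04. It also turned which direction had more calls in 3 comparisons, to 462 rises and 453 falls in Sirt1KO, 397 and 405 with the knockdown against Sirt1KO, and 307 and 340 against WT ESC. A mean of at least 10 fragments turned it too, to 372 rises and 451 falls in EpiLC and 212 and 243 with the knockdown against WT ESC. Against Sirt1KO it did not (284 and 226). With a mean of at least 2 FPKM the first pair were 315 and 418, and 188 and 221. In EpiLC it also turned with pseudocount 0.1 (619 and 651) and with only the 2 groups compared (626 and 649). Leaving out WT ESC replicate 2 (605 and 616) or EpiLC replicate 2 (582 and 592) did the same. With the knockdown against WT ESC it turned without knockdown replicate 1 (273 and 284) or 3 (275 and 295). Depth limits the loci under 10 fragments most.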
